A study of Arabidopsis thaliana with 22 samples.

Results

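The data described here are the 12 arrays of *Arabidopsis thaliana* pGL1::GL1-GR plants, of 22 arrays in the series, set out as 6 arrays at 24 h against 6 arrays at 4 h. All pGL1::GL1-GR arrays were taken by their labels, and no measured value was used to choose them. The plants lack a functional GL1, the R2R3-MYB protein needed to start a trichome (leaf hair), and carry GL1 fused to the hormone-binding part of the glucocorticoid receptor under the *GL1* promoter. In the study, dexamethasone (DEX) lets the fusion protein act, and the series was made to compare DEX with Mock plants. The 24 h set held 3 arrays of DEX plants and 3 of Mock plants, and the 4 h set held 3 of DEX plants and 3 of Mock plants. In the study's methods the seedlings were moved from plain MS medium to MS medium with DEX, or with ethanol for Mock, and pooled green tissue was collected. The other 10 arrays, of pGL3::GL3-GR plants that lack GL3 and EGL3, held 4 arrays at 24 h (2 DEX, 2 Mock) and 6 at 4 h (3 DEX, 3 Mock), and were used only to set the change with time beside that in a second line. The labels number the samples but name no source, while the study's methods describe independent biological materials for the RNA. The p-values below measure the spread between these samples. Time since transfer, time of day and the set in which the arrays were processed cannot be told apart in this design.

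Seedlings make sugar in the light, store part of it as starch, and live on that starch at night. When sugar runs short, the SnRK1 kinase and its bZIP partners switch on genes for amino acid breakdown and for autophagy, in which ATG8 proteins coat the membranes that deliver cell contents to the vacuole, and genes for growth and storage are turned down. The circadian clock sets many transcripts to a time of day, *GIGANTEA* (*GI*) among the best known, and moving or touching plants briefly induces genes of calcium and jasmonate signalling.

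Deposited values were log2 GCRMA levels. Their distributions differed with time, with array medians of 4.45 to 4.58 at 24 h and of 5.96 to 6.06 at 4 h, although the upper quartiles were close (8.51 to 8.57 at 24 h, 8.41 to 8.48 at 4 h). All 12 arrays were therefore put on 1 distribution by quantile normalization, and all levels below are log2 values on that scale unless stated. A level under 3.38, the 40th percentile, was at background, so that a difference from or to such a level has no exact size. After normalization, arrays of 24 h correlated with each other at 0.992 to 0.998 across probe sets, arrays of 4 h at 0.993 to 0.998, and arrays of 24 h with arrays of 4 h at 0.904 to 0.928. Mock 24 h sample 3 was the array least like the others of its time (0.992 to 0.995). The *GL1* probe set was at background on all 12 arrays (2.11 to 2.36), and whether it detects the GL1-GR transcript was not tested. Probe sets are the units counted, and most ATH1 probe sets with no single annotated gene here stay unnamed.

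Of 14669 probe sets tested, 6974 (47.5%) differed between 24 h and 4 h by at least 2-fold at an adjusted p under 0.05, 3436 higher at 24 h (23.4%) and 3538 lower (24.1%). The 6 arrays of 24 h and the 6 of 4 h did not overlap for 10355 probe sets (70.6%). A difference of at least 4 on the log2 scale was reached by 221 called probe sets that were higher and 244 that were lower at 24 h. Without the minimum difference the test called 12499 probe sets (85.2%), 6249 higher and 6250 lower. The median difference over tested probe sets was 0.01 on the quantile scale, -0.15 on the deposited scale and 1.38 after centring each array on its median. The calls split into 2844 higher and 4670 lower on the deposited scale, and into 8577 higher and 2042 lower after centring. Centring adds the same amount to the deposited difference of every probe set, so a change of sign after it is not particular to a gene. The size of falls and rises therefore depends on the scale, and the differences below are relative to the whole distribution of an array. Fewer cells of a type and less RNA per cell cannot be told apart in such tissue.

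Transcripts that are repressed by sugar were higher at 24 h. Of 27 genes in a list of carbon starvation genes, 9 had a named probe set. Of these, 8 rose, none fell and 1 did not pass, against 23.4% higher and 24.1% lower over all probe sets tested. The median difference was 3.17, against 0.01 over all probe sets tested. This list was drawn up with earlier results of these data known. At3g15450, a member of this list, was at 12.15, 12.24 and 12.38 (lowest, median and highest of 6 arrays) at 24 h and at 4.98, 5.92 and 6.75 at 4 h. All arrays of 24 h lay far above all arrays of 4 h, and the rise was 6.38 ± 0.21 on the log2 scale (SE, adjusted p = 2.19e-11). *MCCA*, a subunit of the carboxylase that breaks down leucine, was at 11.39, 12.09 and 12.23 at 24 h and at 6.87, 7.33 and 7.70 at 4 h, a rise of 4.68 ± 0.15 (adjusted p = 1.70e-11). *ETFQO*, which passes electrons from amino acid breakdown to the mitochondrial chain, was at 8.38, 9.01 and 9.27 at 24 h and at 3.26, 3.78 and 4.08 at 4 h, a rise of 5.20 ± 0.17 (adjusted p = 1.43e-11). Neither gene had overlapping groups. The other members that rose were *IVD* (3.17), which acts just before *MCCA* in leucine breakdown, *MCCB* (1.92), its second subunit, *ATL8* (3.74), a RING-finger gene, *EXO* (2.87), and At4g33150 (1.84), the lysine-degrading enzyme LKR/SDH. *BZIP53*, a transcription factor of the low-energy response, was at 12.68 to 12.90 at 24 h and at 11.88 to 12.53 at 4 h and stayed under the 2-fold minimum.

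**Figure D1:**
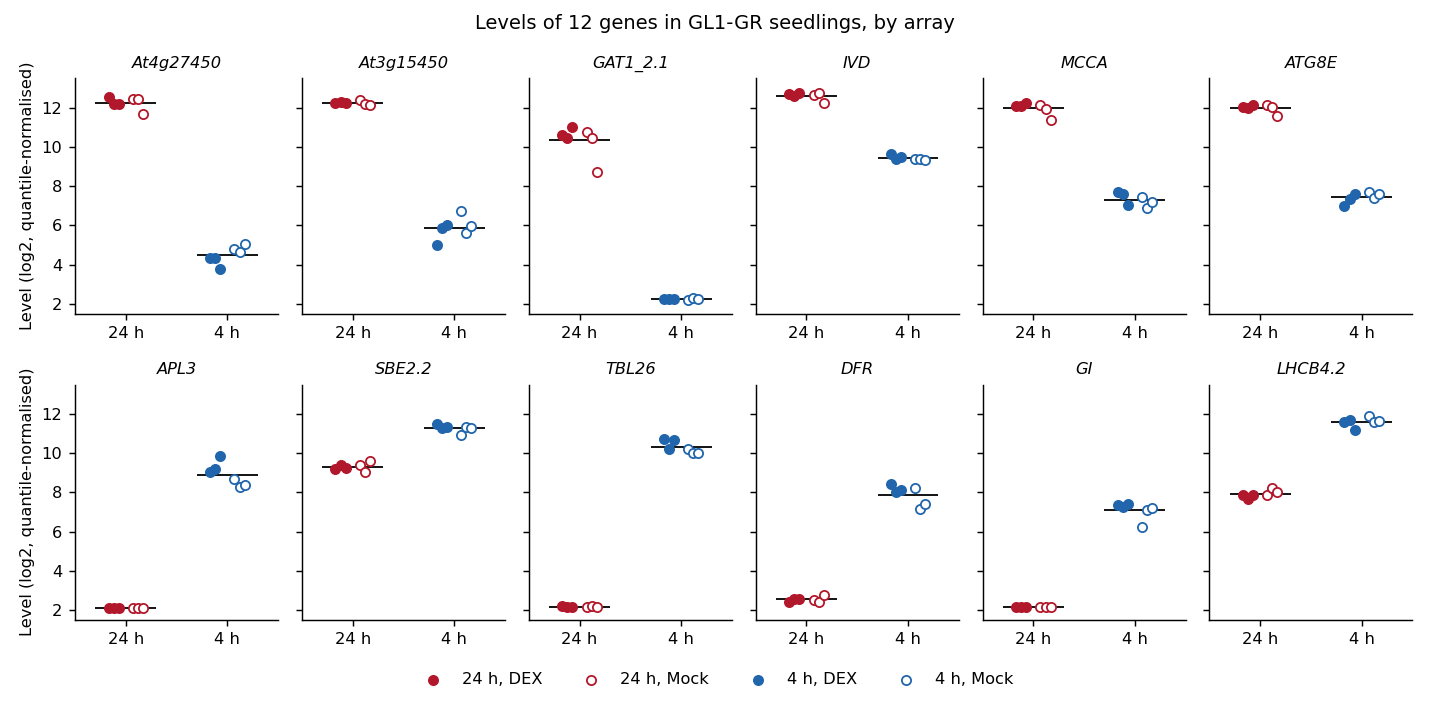
Log2 level (quantile scale) on each of the 12 pGL1::GL1-GR arrays for genes named in the text, with 24 h arrays left of 4 h arrays; each point is 1 array (filled DEX, open Mock) and the line is the mean of 6. At3g15450 lies between 12.15 and 12.38 at 24 h and between 4.98 and 6.75 at 4 h, and *GI* is at background on every 24 h array.

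Other enzymes of amino acid breakdown, put together after their values were seen, moved the same way. Of 18 members 7 were tested. Among these 7, 6 were higher and none lower (median 2.77), against 23.4% higher and 24.1% lower over all probe sets tested. *MGL*, which cleaves methionine, was at 7.14, 8.37 and 8.83 at 24 h and at 3.43, 3.46 and 3.53 at 4 h, a rise of 4.79 ± 0.22 (adjusted p = 3.54e-10). The arrays of 4 h were all close to background and the groups did not overlap. Rises of 3.58 for *ALDH6B2*, a valine-breakdown dehydrogenase, 3.34 for *ASPGB1*, an asparaginase, 2.77 for *DELTA-OAT*, ornithine aminotransferase, 1.24 for *ETFBETA* (0.87 without the trend on gene length) and 1.12 for *D2HGDH* also passed. *ETFALPHA*, the partner of *ETFBETA*, had overlapping groups (8.75 to 9.07 at 24 h, 8.36 to 9.19 at 4 h).

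The *ATG8* family, also chosen after its values were seen, had 9 members on the array. Of these, 8 rose and none fell (median 1.63), against 23.4% higher and 24.1% lower over all probe sets tested. *ATG8E* was at 11.59, 12.04 and 12.16 at 24 h and at 6.99, 7.51 and 7.70 at 4 h, a rise of 4.54 ± 0.13 (adjusted p = 6.50e-12). *ATG8H* was at 9.37, 9.93 and 10.36 at 24 h and at 4.35, 4.81 and 5.36 at 4 h, a rise of 5.06 ± 0.18 (adjusted p = 4.00e-11). In both, every array of 24 h was above every array of 4 h. The other rises were between 1.27 (*ATG8F*) and 2.02 (*ATG8G*), and *ATG8D*, at 0.78, did not reach the minimum. Members of this family are close in sequence, so signal shared between their probe sets was not tested.

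Of the SnRK1 regulatory subunits, *AKINBETA1* was at 10.43, 10.84 and 11.08 at 24 h and at 4.75, 5.52 and 5.96 at 4 h. It rose by 5.32 ± 0.18 (adjusted p = 2.18e-11), with no overlap. Its relatives *KINBETA2* (At4g16360, -0.95 ± 0.10) and *KINBETA3* (At2g28060, 0.86 ± 0.10) did not reach 2-fold. Among *SWEET* genes, which encode sugar transporters, 8 of 16 on the array passed the filter on low levels, 2 were higher, 2 lower and 4 not called, near the shares over all probe sets tested (23.4% and 24.1%). *SWEET2* was at 8.35, 9.58 and 9.96 at 24 h and at 3.08, 3.38 and 3.57 at 4 h, and rose by 6.03 ± 0.23 (adjusted p = 6.04e-11). Its 4 h arrays were at or near background, while *SWEET11*, a phloem-loading transporter, had overlapping groups at 10.99 to 11.31 at 24 h and 10.61 to 11.02 at 4 h. The SnRK1 and *SWEET* sets were also drawn up after their values were seen.

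The largest rise among probe sets with a single named gene was that of *GAT1_2.1*, which encodes a glutamine amidotransferase. It was at 8.71, 10.53 and 11.05 at 24 h and at 2.2, 2.24 and 2.28 at 4 h, a difference of 8.10 ± 0.30 (adjusted p = 4.73e-11). A second probe set of the gene was at 7.40, 8.98 and 9.56 at 24 h and at 2.14, 2.14 and 2.15 at 4 h. Both were at background on all arrays of 4 h, and both were lowest at 24 h on Mock 24 h sample 3. *UPB1*, the transcription factor UPBEAT1, was at 8.13, 9.50 and 9.69 at 24 h and at 2.73, 2.81 and 2.88 at 4 h, a rise of 6.35 ± 0.25 (adjusted p = 1.11e-10). Loci without a gene name made up the rest of the 12 largest rises, among them At3g15440 (7.55), At3g15630 (7.42), At4g26290 (7.0), At2g37750 (6.51) and At3g49790 (6.07).

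In the list of 25 hypoxia and fermentation genes, 8 had a named probe set and 7 were tested. Among the 7, 4 rose, 1 fell and 2 did not pass. Their median was 2.21, against 23.4% higher and 24.1% lower over all probe sets tested. At4g27450 was at 11.70, 12.32 and 12.55 at 24 h and at 3.80, 4.50 and 5.06 at 4 h, a rise of 7.75 ± 0.19 (adjusted p = 1.65e-12). At1g19530 was at 11.63, 12.65 and 12.71 at 24 h and at 4.00, 4.44 and 5.64 at 4 h, a rise of 7.74 ± 0.29 (adjusted p = 5.87e-11). The groups of both were far apart, and At1g33055 (6.98) and At4g33560 (2.21, but 0.65 on the deposited scale) also rose. *PDC2*, a pyruvate decarboxylase of ethanol fermentation, instead fell, at 9.37, 9.61 and 10.30 at 24 h and at 10.95, 11.09 and 11.24 at 4 h, a difference of -1.40 ± 0.14 (adjusted p = 1.13e-06) that was 0.55 after median centring. *HRA1* (At3g10040), an attenuator of the hypoxia response, overlapped between times (4.89 to 5.14 at 24 h, 3.71 to 5.74 at 4 h). At5g10040, the remaining member with a probe set, was at background on all arrays (2.14 to 2.89).

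**Figure D2:**
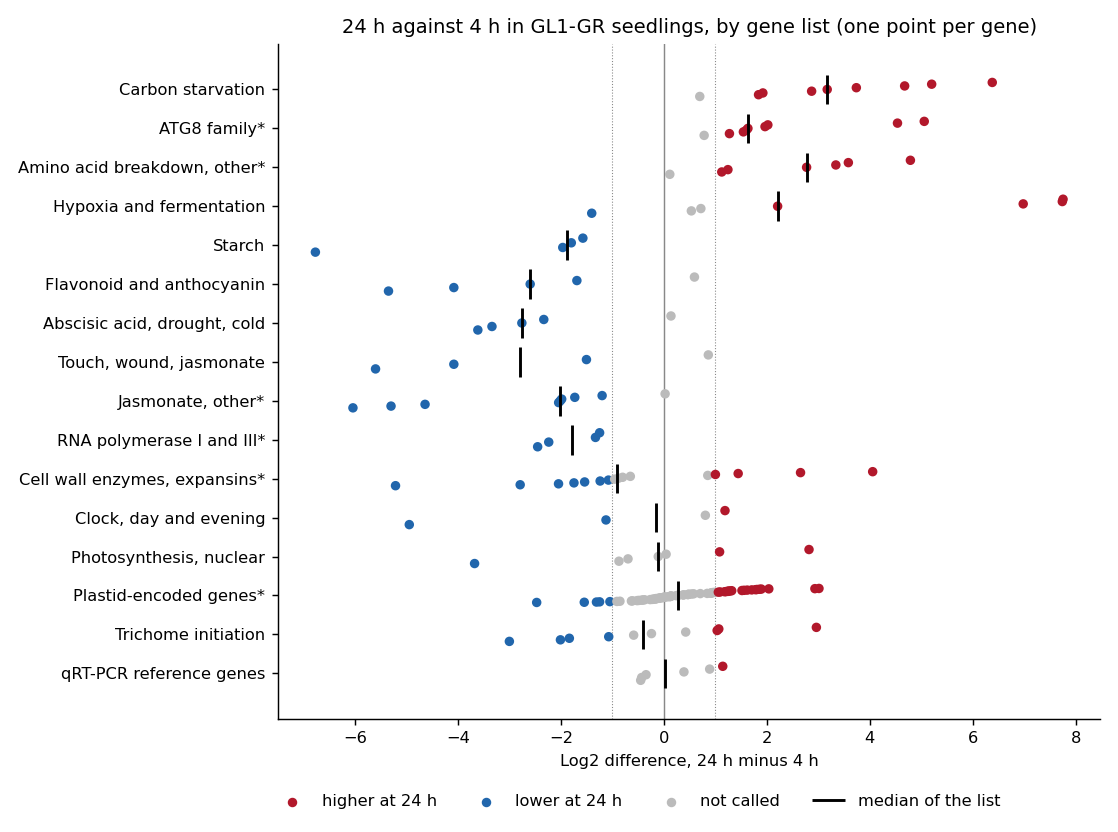
Log2 difference of 24 h minus 4 h for each tested gene of 16 lists (points, coloured where called higher or lower, grey where not) with the list's median as a black line, dotted lines at the 2-fold minimum and an asterisk on lists put together after values were seen. The lists without an asterisk were chosen with earlier results of these data known. The 9 tested carbon starvation genes have a median of 3.17 and the 4 tested starch genes of -1.88, against 0.01 over all probe sets tested.

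The few starch genes that could be tested were lower at 24 h. Of 24 genes in the list, 4 had a named probe set. All 4 fell (median -1.88), against 24.1% lower over all probe sets tested. *APL3*, 1 of the large subunits of the enzyme that commits sugar to starch (ADP-glucose pyrophosphorylase), was at background on every array of 24 h (2.12 at the lowest, median and highest) and at 8.25, 8.85 and 9.85 at 4 h. The difference was -6.77 ± 0.18 (adjusted p = 3.53e-12), and its relative *APL4*, added after its values were seen, gave the same picture, with 2.12 on the arrays of 24 h and 4.76, 6.13 and 6.79 at 4 h (-3.78 ± 0.27, adjusted p = 2.68e-08). *SBE2.2*, a starch-branching enzyme, was at 9.03, 9.32 and 9.62 at 24 h and at 10.93, 11.32 and 11.47 at 4 h (-1.96 ± 0.11, adjusted p = 3.34e-09). *PWD*, a kinase that phosphorylates starch before breakdown, fell by 1.8 and *DPE1*, a plastid disproportionating enzyme, fell by 1.57, but after median centring these 2 differences were 0.065 and 0.24, and that of *SBE2.2* was -0.03. The fall of *PWD* was also under the minimum once the trend on gene length was removed, at -0.94.

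The largest fall of a gene with a name was that of *TBL26* (TRICHOME BIREFRINGENCE-LIKE 26). It was at background at 24 h (2.16, 2.18 and 2.2) and at 10.01, 10.22 and 10.74 at 4 h, a difference of -8.14 ± 0.11 (adjusted p = 1.70e-14). *UGT84A1*, a glucosyltransferase of phenylpropanoids, was at 2.13, 2.17 and 2.19 at 24 h and at 8.46, 8.63 and 9.05 at 4 h, a difference of -6.50 ± 0.09 (adjusted p = 1.70e-14). Neither had an array of 24 h above background. The other 9 of the 12 largest falls, *APL3* aside, were loci without a gene name, with differences of -7.02 (At1g80130) to -6.16 (At1g60590).

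Of 20 genes in the list of flavonoid and anthocyanin synthesis, 5 had a named probe set. Among these 5, 4 fell (median -2.60), against 24.1% lower over all probe sets tested. *DFR*, which makes the anthocyanin precursors, was at 2.40, 2.54 and 2.77 at 24 h and at 7.14, 8.08 and 8.42 at 4 h, a fall to background with a difference of -5.35 ± 0.18 (adjusted p = 2.86e-11). *MYBL2*, a repressor of the pathway, was at 7.90, 8.42 and 9.03 at 24 h and at 10.91, 11.07 and 11.20 at 4 h (-2.60 ± 0.17, adjusted p = 9.80e-09). The gene for the enzyme and that for the repressor thus were both lower, with no overlap between times, although *MYBL2* was at -0.75 after median centring, under the minimum. At4g14090 fell by 4.08 and *UGT78D2*, a flavonoid glucosyltransferase, by 1.69, the last of these at 0.014 after median centring. *UF3GT* was at 3.70 to 3.83 at 24 h and at 2.92 to 3.58 at 4 h.

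Genes induced by touch, wounding or jasmonate, and by abscisic acid or cold, were lower at 24 h in most tested cases. In the touch and wound list 4 of 20 genes had a named probe set. Among these 4, 3 fell (median -2.79), against 24.1% lower over all probe sets tested. *CML37*, a calmodulin-like protein, was at 2.12, 3.08 and 3.73 at 24 h and at 7.76, 8.74 and 9.39 at 4 h (-5.60 ± 0.28, adjusted p = 9.71e-10), whereas the related *CML38* overlapped between times, at 8.21, 9.25 and 9.89 at 24 h and at 8.09, 8.29 and 8.70 at 4 h. *WRKY53*, a transcription factor of stress and senescence, was at 4.3, 4.82 and 5.42 at 24 h and at 8.86, 8.99 and 9.09 at 4 h (-4.08 ± 0.15, adjusted p = 4.63e-11). *STZ*, a stress zinc-finger protein, fell by 1.5, which was -0.88 after median centring.

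Of 13 further jasmonate genes, listed after values were seen, 9 were tested. Among these 9, 8 fell (median -2.01), against 24.1% lower over all probe sets tested. *JMT*, which makes methyl jasmonate, was at 2.13 on the arrays of 24 h and at 6.84, 7.39 and 7.96 at 4 h (-5.30 ± 0.13, adjusted p = 1.85e-12). *MYC4*, a jasmonate transcription factor, was at 3.35, 3.44 and 3.68 at 24 h and at 7.50, 8.18 and 8.34 at 4 h (-4.64 ± 0.12, adjusted p = 2.84e-12). Its close relative *MYC3* did not separate, at 7.51 to 7.79 at 24 h and 7.51 to 7.68 at 4 h. In the abscisic acid and cold list 5 of 25 genes had a named probe set, and 4 of the 5 fell (median -2.76), against the same 24.1%. *COR15A*, which encodes a chloroplast protein that protects membranes from freezing, was at 8.29, 9.12 and 10.22 at 24 h and at 12.42, 12.63 and 12.95 at 4 h (-3.34 ± 0.28, adjusted p = 1.39e-07). *COR15B* (-2.76), *LTI30* (-2.33) and *LEA4-5* (-3.61) fell as well, the first pair under the minimum after median centring (-0.79 and -0.63), and *COR47*, a dehydrin, overlapped (12.74 to 12.95 at 24 h, 12.47 to 12.85 at 4 h).

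Few clock and light genes had a named probe set, 4 of 22 in the day and evening clock list. *GI*, an evening gene of the clock, was at 2.14 on all arrays of 24 h and at 6.22, 7.23 and 7.40 at 4 h, a difference of -4.95 ± 0.15 (adjusted p = 1.22e-11). No array of 24 h was above background. At4g33980, at 10.72, 11.27 and 11.46 at 24 h and at 9.77, 9.98 and 10.28 at 4 h, rose by 1.19 ± 0.13 (adjusted p = 1.84e-06). *COR27*, a clock-linked cold gene, overlapped (11.37 to 12.18 at 24 h, 10.73 to 11.53 at 4 h), and At1g69570 fell by 1.12 from levels already close to background at 4 h (3.78 to 3.90). *HYH*, a bZIP factor of light signalling, was at 9.73 to 10.23 at 24 h and at 9.71 to 10.20 at 4 h.

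In the list of nuclear photosynthesis genes, 7 of 40 had a named probe set. Among these 7, 2 rose, 1 fell and 4 did not reach 2-fold (median -0.11), against 23.4% higher and 24.1% lower over all probe sets tested. The paralogs of 1 antenna protein, CP29 of photosystem II, went different ways. *LHCB4.2* was at 7.68, 7.88 and 8.20 at 24 h and at 11.18, 11.62 and 11.90 at 4 h (-3.68 ± 0.10, adjusted p = 4.46e-12). *LHCB4.3* was at 9.16, 9.38 and 10.09 at 24 h and at 6.19, 6.64 and 6.98 at 4 h (2.82 ± 0.17, adjusted p = 4.72e-09). *LHCB4.1* was at 12.40, 12.51 and 12.83 at 24 h and at 13.15, 13.26 and 13.31 at 4 h, a difference of -0.70 ± 0.08 under the 2-fold minimum. In none of the 3 did the times overlap, and direction differed between *LHCB4.2* and *LHCB4.3* on the deposited (-3.38 and 2.65) and quantile scales and after median centring (-1.86 and 4.17). *PSBW*, a small photosystem II subunit, rose by 1.08, which became 0.42 once the length trend was removed, and *RCA*, Rubisco activase, overlapped (13.08 to 13.52 at 24 h, 13.19 to 13.40 at 4 h). *PORB*, which makes chlorophyll's precursor in the light, was at 9.73, 10.11 and 10.48 at 24 h and at 11.11, 11.64 and 11.81 at 4 h, a difference of -1.47 ± 0.15 (adjusted p = 1.21e-06) that was 0.53 after median centring.

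Of 69 plastid-encoded probe sets, brought together after values were seen, 19 were higher, 5 lower and 45 not called (median 0.27), against 23.4% higher and 24.1% lower over all probe sets tested. *ndhF*, a subunit of the plastid NDH complex, was at 5.34, 5.57 and 5.97 at 24 h and at 2.50, 2.58 and 2.79 at 4 h (3.01 ± 0.10, adjusted p = 2.43e-11). *psbL*, a small photosystem II subunit, was at 10.67, 10.92 and 11.03 at 24 h and at 7.65, 7.82 and 8.40 at 4 h (2.93 ± 0.13, adjusted p = 3.34e-10). *rpoB*, of the plastid RNA polymerase, was lower, at 4.29, 4.61 and 5.28 at 24 h and at 6.44, 7.09 and 8.05 at 4 h (-2.47 ± 0.21, adjusted p = 1.55e-07). The plastid genes therefore did not move as 1 group, and *rbcL*, the large subunit of Rubisco, was lower (-1.55, but 0.46 after median centring) where *psbA*, the D1 protein, was at 12.71 to 13.04 at 24 h and 12.04 to 12.48 at 4 h, under the minimum.

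Cell wall and hormone genes were mixed. Of 16 tested xyloglucan hydrolase, expansin and cellulase genes, a list drawn up after values were seen, 4 rose, 7 fell and 5 did not pass (median -0.92), against 23.4% higher and 24.1% lower over all probe sets tested. *XTH33*, a xyloglucan hydrolase gene, was at 9.97, 10.75 and 11.23 at 24 h and at 5.42, 6.74 and 7.68 at 4 h (4.06 ± 0.30, adjusted p = 4.10e-08), and *GH9C2*, a cellulase gene, was at 2.15, 2.15 and 2.16 at 24 h and at 7.03, 7.37 and 7.70 at 4 h (-5.21 ± 0.09, adjusted p = 1.20e-13). These 2 genes show the spread within the list. *GH3.3*, an enzyme that conjugates auxin, was at 2.13, 2.14 and 4.47 at 24 h and at 6.10, 7.24 and 8.35 at 4 h (-4.47 ± 0.50, adjusted p = 2.63e-06), and its relative *WES1* overlapped (3.55 to 4.96 at 24 h, 3.28 to 3.93 at 4 h). *BHLH101*, an iron-deficiency factor, fell by 4.02 to background, and *PYE*, another, rose by 1.31, which was 0.13 on the deposited scale. *BCAT4*, of glucosinolate synthesis, fell by 1.6, a difference of 0.48 after median centring, and neither of 2 nitrate genes passed.

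Of 16 trichome genes on the array, 10 passed the filter on low levels, and 3 of these rose, 4 fell and 3 did not pass (median -0.41), where 47.5% of all probe sets tested were called in either direction. *SIM*, an inhibitor of cell division in trichomes, was at 7.70, 7.82 and 8.0 at 24 h and at 4.34, 4.96 and 5.21 at 4 h (2.96 ± 0.11, adjusted p = 6.50e-11). *SCL8*, a GRAS protein, was at 3.07, 3.13 and 3.91 at 24 h and at 6.01, 6.21 and 6.54 at 4 h (-3.0 ± 0.15, adjusted p = 8.29e-10). In both, the DEX and Mock arrays of 1 time lay together, apart from those of the other time. *EGL3*, a bHLH partner of GL1, fell by 2.01 to background, *RBR1*, the retinoblastoma protein, by 1.84 (-0.64 after median centring, -1.01 without the length trend), and *SPY* by 1.07, while *TTG1*, the WD40 partner, rose by 1.03. *CPC*, a single-repeat MYB inhibitor, was at 6.34, 6.65 and 6.84 at 24 h and at 4.85, 5.50 and 6.51 at 4 h and was called higher although the times overlapped. Without the trend on gene length the calls of *CPC* (0.44) and *SPY* (-0.22) ended, and those of *CPC*, *SPY* and *TTG1*, all close to the 2-fold minimum, also ended without 1 of several arrays. *GL2*, *TTG2*, *MYB23*, *ATMYC1* and *GIS* were at background like *GL1*. Of the cell cycle list *PRL*, a replication factor, fell by 2.70 and *CYCD3;1* overlapped between times (5.27 to 6.02 at 24 h, 5.65 to 6.28 at 4 h).

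Markers of other tissues and reference genes give the frame for these changes. *PYK10*, a root beta-glucosidase, was at 12.85 to 13.02 at 24 h and at 12.40 to 12.82 at 4 h in these samples labelled as green tissue, and the root hair expansin gene *EXPA7* was at background (2.18 to 2.46). *FMA*, of guard cells, was at 7.38 to 7.89 at 24 h and 6.67 to 6.96 at 4 h, under the minimum, and *SPCH* and *MUTE*, of earlier stomatal stages, were at background. Of 6 tested genes that are used as qRT-PCR references, 5 did not reach 2-fold and *PEX4* rose (1.14 ± 0.09, adjusted p = 4.68e-08), at 9.08, 9.47 and 9.6 at 24 h and at 8.17, 8.27 and 8.42 at 4 h, a rise of 0.73 without the length trend. The median over the 6 was 0.02.

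The difference with time went with gene length. Over 8007 tested probe sets with a gene length, Spearman's rho across genes was -0.331 (a description, as genes are not independent). Genes under 1 kb had a median difference of 0.98, with 49.4% higher and 12.9% lower, and genes of at least 6 kb had a median of -1.06, with 5.48% higher and 52.4% lower. The steps between were 0.67 for 1 to 1.5 kb, 0.38 for 1.5 to 2 kb, 0.01 for 2 to 3 kb, -0.31 for 3 to 4 kb and -0.64 for 4 to 6 kb, so the order by length had no exception. With the trend on length removed, 1763 of these 8007 probe sets were higher and 1750 lower. With the trend left in, 2048 were higher and 1845 lower among the 8032 tested probe sets with 1 gene, nearly the same set. At4g27450 (7.29), *MCCA* (5.28), *ATG8E* (4.01), *APL3* (-6.32), *GI* (-4.11) and *LHCB4.2* (-4.29) stayed large. The genes of the largest subunits of RNA polymerases I and III, 4 genes chosen after their values were seen, all fell (median -1.78). Over all probe sets tested, 24.1% were lower. Without the trend, however, *NRPA1* went to -0.12 and *NRPC1* to 0.016, and *NRPA1* was at 0.054 after median centring. The array's control probe sets did not move 1 way. The 3′ level minus the 5′ level of actin was 3.81, 3.94 and 4.00 at 24 h and 4.82, 4.92 and 5.24 at 4 h, and that of ubiquitin was 2.45, 2.53 and 2.62 at 24 h and 1.98, 2.07 and 2.14 at 4 h. RNA quality and amplification were not tested as a source of the trend.

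**Figure D3:**
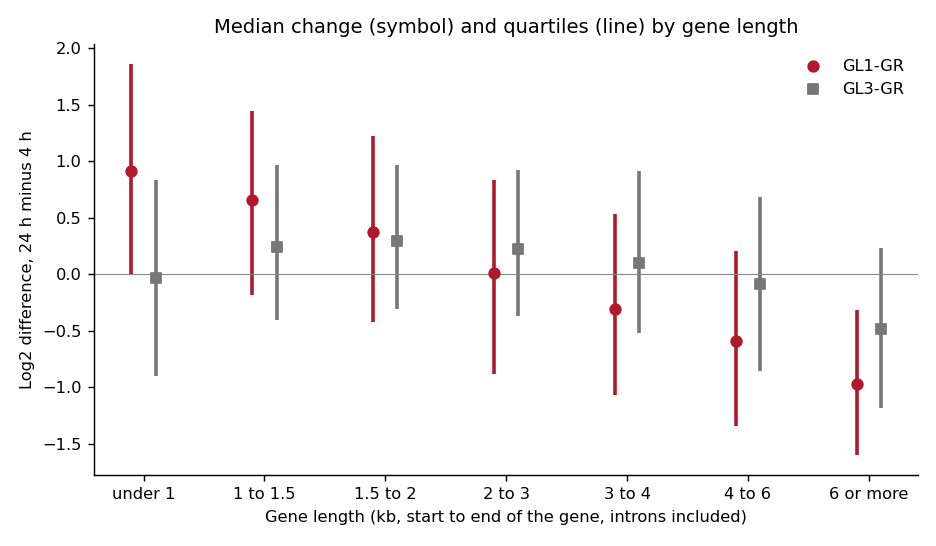
Median log2 difference of 24 h minus 4 h (symbols) and its quartiles over probe sets (lines) by gene length in kb, introns included, in GL1-GR and GL3-GR seedlings, both on the scale of all 22 arrays. In GL1-GR the median is 0.91 under 1 kb and -0.97 at 6 kb or more; in GL3-GR it is -0.03 and -0.49.

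The change with time in DEX plants followed that in Mock plants. Fitted apart, the 2 treatments gave differences that correlated at 0.984 across probe sets, and 6336 probe sets were called in both in the same direction. The test of the difference between them (time by treatment) called 1 probe set of 14669 (0.00682%), and 730 at an unadjusted p under 0.05. That probe set has no gene named here and was singled out after its values were seen. It was at 2.13 on every array of 24 h, at 6.17, 6.37 and 6.50 in DEX plants of 4 h and at 4.05, 4.2 and 4.27 in Mock plants of 4 h. All arrays of 24 h were at background, and among arrays of 4 h the DEX plants were above the Mock plants. The difference of changes was -2.17 (adjusted p = 0.000153).

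To ask whether the other line changed alike, all 22 arrays were normalised together and the GL1-GR change was set against the GL3-GR change. In pGL3::GL3-GR seedlings 6073 of 15895 probe sets (38.2%) were called, 3186 (20%) higher and 2887 (18.2%) lower at 24 h. The difference between the lines passed for 7442 (46.8%), 3591 of them positive (22.6%) and 3851 negative (24.2%), where positive means a higher change in GL1-GR. Among the 14669 probe sets tested in both fits, 3075 were higher and 2102 lower at 24 h in GL3-GR. Of the probe sets higher at 24 h in GL1-GR, 36.3% were higher in GL3-GR as well, which was 40.6% of those 3075. Of those lower in GL1-GR, 28.3% were lower in both lines, which was 47.7% of those 2102. In opposite directions, 283 were higher in GL1-GR and lower in GL3-GR, and 418 the reverse. The GL3-GR arrays of 4 h had a narrower deposited distribution, with upper quartiles of 5.63 to 6.13 against 8.41 to 8.64 on the other arrays. On the deposited scale the difference between lines was positive for 1012 probe sets and negative for 12391, so the difference for a single gene is given below on both scales.

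Of the 9 carbon starvation genes tested, 6 differed between the lines in their change with time, against 46.8% of all probe sets tested. The median change of the 9 genes was 0.82 in GL3-GR. *ATL8* (difference 0.12 ± 0.60, adjusted p = 0.866) and *BZIP53* (0.02 ± 0.30, adjusted p = 0.963) did not pass, and *MCCB* stayed under the 2-fold minimum (0.91). The GL3-GR arrays of 4 h were spread for *ATL8* (2.23 to 5.89) and *BZIP53* (10.71 to 12.27). Not passing therefore does not show that the lines changed alike. *MCCA* had medians of 11.64 at 24 h and 6.66 at 4 h in GL1-GR and of 11.56 at 24 h and 11.81 at 4 h in GL3-GR (4.57 ± 0.40, adjusted p = 4.41e-08, 2.33 on the deposited scale). Its GL1-GR arrays of 4 h were thus low beside the other 3 sets. The same order was seen for 3 genes of other lists. At4g27450, of the hypoxia list, had medians of 11.90 at 24 h and 4.05 at 4 h in GL1-GR and of 11.71 at 24 h and 10.84 at 4 h in GL3-GR. The changes differed by 6.98 ± 0.31 (adjusted p = 1.06e-11), or 3.96 on the deposited scale. *ATG8E* had medians of 11.58 at 24 h and 6.85 at 4 h in GL1-GR and of 11.35 at 24 h and 10.95 at 4 h in GL3-GR (4.42 ± 0.24, adjusted p = 1.12e-10, 1.99 on the deposited scale). *AKINBETA1* had medians of 10.25 at 24 h and 4.97 at 4 h in GL1-GR and of 10.05 at 24 h and 10.07 at 4 h in GL3-GR (5.19 ± 0.30, adjusted p = 2.76e-10, 2.15 on the deposited scale). The opposite held for *APL3*, *DFR* and *TBL26*, high in GL1-GR at 4 h alone. *APL3* had medians of 2.17 at 24 h and 8.18 at 4 h in GL1-GR and of 2.17 at 24 h and 2.34 at 4 h in GL3-GR (-5.82 ± 0.20, adjusted p = 4.06e-13, -6.20 on the deposited scale).

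**Figure D4:**
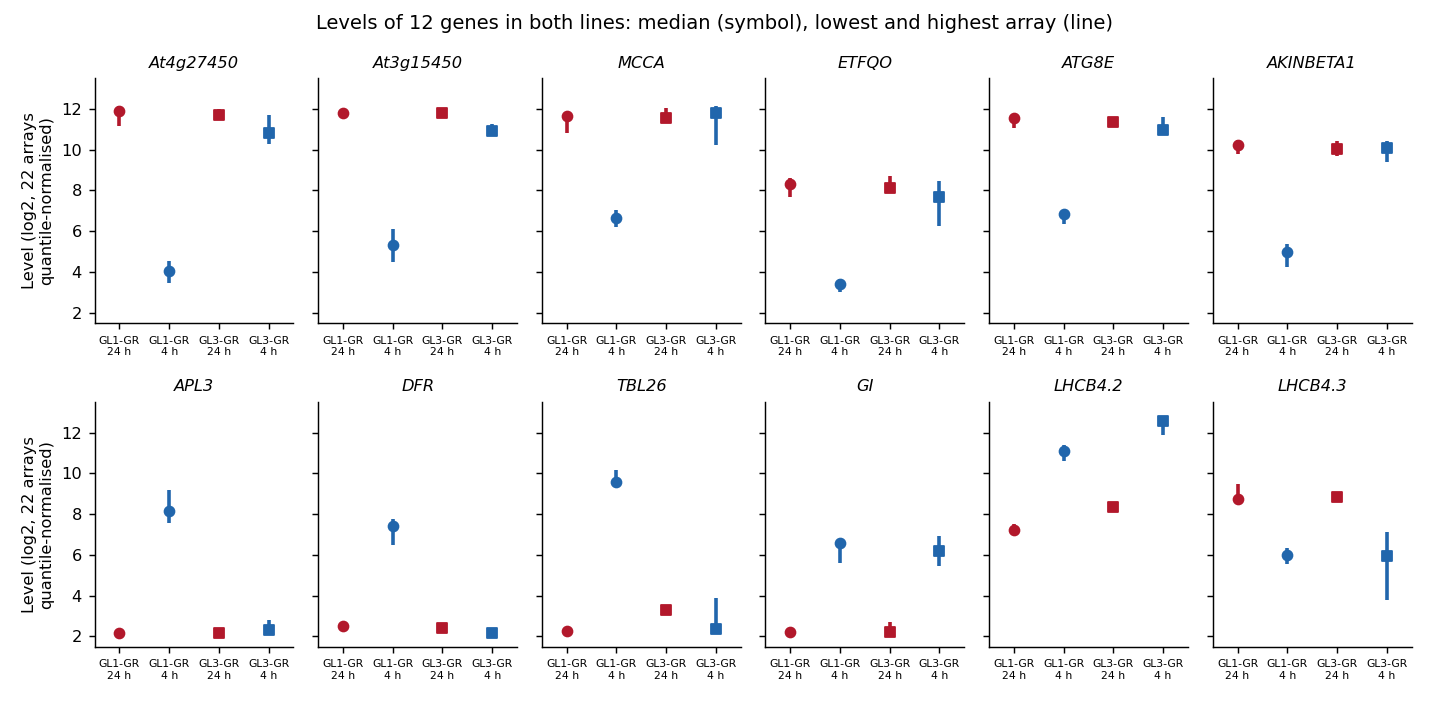
Log2 level on the scale of all 22 arrays for genes in the 4 sets of arrays (24 h left of 4 h within each line, GL1-GR to the left); symbols are medians and lines run from the lowest to the highest array. At4g27450 and *MCCA* are low in GL1-GR at 4 h alone, *APL3* is high there alone, and *GI* is higher at 4 h in both lines.

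Other genes moved with time in both lines, but whether their changes differed in size depended on the scale. *GI* had medians of 2.21 at 24 h and 6.57 at 4 h in GL1-GR and of 2.23 at 24 h and 6.17 at 4 h in GL3-GR. Both lines were at background at 24 h, and the difference of changes was -0.29 ± 0.32 (adjusted p = 0.432), but -2.65 on the deposited scale, where it passed. *LHCB4.2* changed by -3.82 in GL1-GR and -4.06 in GL3-GR (difference 0.23 ± 0.20, adjusted p = 0.318), and the difference was -1.20 on the deposited scale. *LHCB4.3* changed by 2.81 in GL1-GR and 2.98 in GL3-GR (difference -0.18 ± 0.56, adjusted p = 0.792), against -2.64 on the deposited scale, and *PORB* by -1.56 in GL1-GR and -1.51 in GL3-GR (difference -0.05 ± 0.24, adjusted p = 0.880), against -1.88 on the deposited scale. *DELTA-OAT* changed by 2.66 in GL1-GR and 2.82 in GL3-GR, a difference of -0.16 that was -2.45 on the deposited scale. The differences of *LHCB4.2*, *LHCB4.3*, *PORB* and *DELTA-OAT* passed on the deposited scale and did not on the quantile scale. *GH3.3* changed by -3.92 in GL1-GR and -5.01 in GL3-GR, a difference of 1.09 that was -1.19 on the deposited scale and passed on neither. *HYH* followed neither pattern, with a change of 0.03 in GL1-GR and 3.23 in GL3-GR (difference -3.20 ± 0.44, adjusted p = 8.39e-06, -4.97 on the deposited scale). The plastid-encoded probe sets differed as well, with 1 of 69 higher and 33 lower in GL3-GR (median -0.98). Over all probe sets tested in GL3-GR, 20% were higher and 18.2% lower. The correlation of change with gene length was -0.0741 across genes in GL3-GR.

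Across all 22 arrays, GL1-GR arrays of 24 h correlated with GL3-GR arrays of 24 h at 0.960 to 0.965, which was above their correlation with the GL1-GR arrays of 4 h (0.902 to 0.928). GL1-GR and GL3-GR arrays of 4 h correlated at 0.847 to 0.894. Line, processing set and time of collection are joined in these sets and cannot be told apart.

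**Figure D5:**
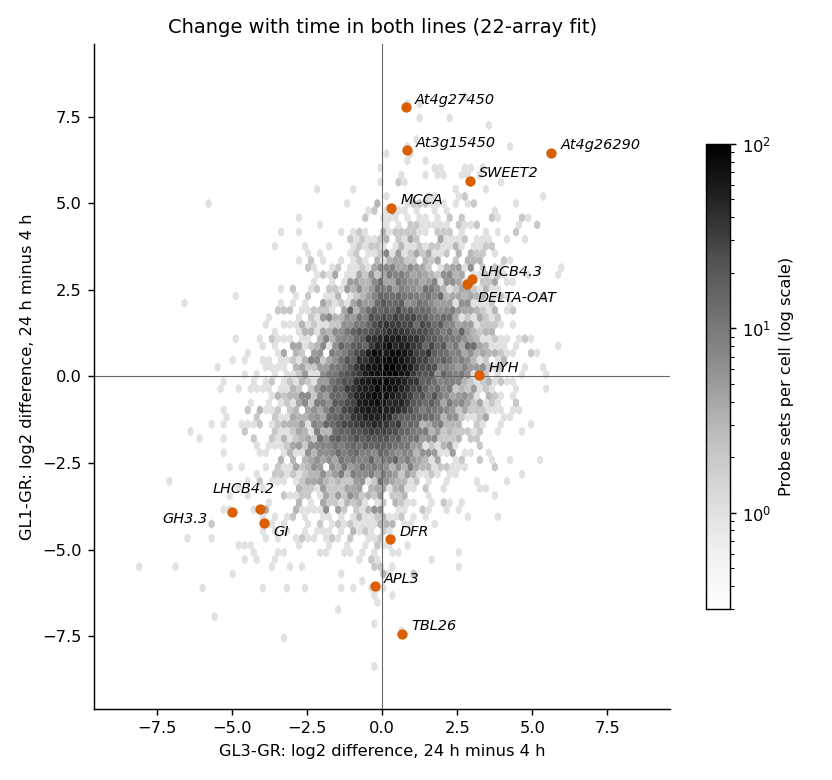
Log2 difference of 24 h minus 4 h in GL1-GR seedlings (y axis) and in GL3-GR seedlings (x axis) over probe sets tested in both fits, on the scale of all 22 arrays, with shading by the number of probe sets and named genes marked. *GI* and *LHCB4.2* are low in both lines, whereas At4g27450 (7.78 in GL1-GR, 0.79 in GL3-GR) moved mainly in GL1-GR.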

How the data were processed

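RNA from green tissue was amplified and labelled with the NuGEN Ovation biotin system and hybridised to Affymetrix ATH1 arrays. The authors deposited 1 log2 level per probe set and array, made by GCRMA from the scanned arrays; the version is not given in the sources used here, nor which arrays were normalised together. Probe sets were used as deposited, 22810 on each array, and 64 control probe sets were left out of the tests.

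The 12 GL1-GR arrays were quantile normalised, since their deposited distributions differed with time. A probe set was tested if it was above the 40th percentile (3.38) on at least 3 of the 12 arrays (14669 of 22746). Differences of 24 h minus 4 h, with treatment as an additive term, were fitted with limma 3.58.1 in R 4.3.3, with Benjamini-Hochberg adjustment over all probe sets tested, and called at an adjusted p under 0.05 and at least 2-fold. For the line comparison all 22 arrays were normalised together (15895 tested), with a mean per group. The number of arrays limits the precision. The fit was checked on simulated data. Tables were made with pandas 2.3.3 and scipy 1.17.1, and figures with matplotlib 3.10.9.

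The platform table gave 1 gene to 13513 probe sets, several to 503 and none to 8730, and 51 were named through the study's list of trichome genes. Symbols were updated through RefSeq, and a gene with several probe sets is given by that with the highest mean over the 12 arrays. Genes named were the 12 largest rises and 12 largest falls with a single gene, no overlap between times and the same direction in the deposited values and in ranks, plus key and called members of gene lists; only part of them is described. Members and lists were chosen with earlier results of these data known, and some lists, named as such, after the values here were seen. Alternatives were other scalings, filters, treatments alone, other fits, the replicate number as a block, leaving out each array, and removal of the trend on gene length, the last chosen after seeing the data. A list with no named probe set (morning clock, phosphate, heat shock, salicylate, and flower and seed markers) gave no value.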

Additional observations from a re-analysis of the deposited data

Results flagged for a closer look

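The change with time differed between GL1-GR and GL3-GR seedlings, by the tested difference of changes, for 3591 probe sets in the positive and 3851 in the negative direction. Among the genes described, the difference was positive, on the log2 scale, for At4g27450 (6.98), *AKINBETA1* (5.19), *MCCA* (4.57) and *ATG8E* (4.42). It was negative for *TBL26* (-8.10), *APL3* (-5.82), *DFR* (-4.97) and *HYH* (-3.20). For *HYH* the GL1-GR arrays overlapped between times, and the GL3-GR arrays were those that changed. All 8 kept their sign on the deposited scale. The narrower distribution of the GL3-GR arrays of 4 h moves with these differences, and its part in them was not tested.

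The change with time differed between DEX and Mock plants for 1 probe set, without a named gene, by -2.17 on the log2 scale. All 6 arrays of 24 h were at background there, so that the difference rests on the DEX and Mock arrays of 4 h.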

How the results depend on the processing

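With each array centred on its median, 8577 probe sets were higher and 2042 lower (10538 and 3090 by adjusted p alone). This centring adds the same amount to the deposited difference of every probe set. Among the probe sets described that were called on either scale, 9 differences turned positive, those of *LHCB4.1* (1.37), *PDC2* (0.55), *PORB* (0.53), *BCAT4* (0.48), *rbcL* (0.46), *DPE1* (0.24), *PWD* (0.065), *NRPA1* (0.054) and *UGT78D2* (0.014). By the same criterion, on the deposited scale *UF3GT* (-1.34), *WES1* (-1.29) and *HRA1* (-1.25) turned negative, and the line difference was positive for 1012 and negative for 12391 probe sets, with *LHCB4.2* at -1.20. A filter at the 60th percentile left 2229 higher and 2275 lower, and no filter gave 9549 higher by adjusted p alone. Without the trend on gene length, 1763 were higher and 1750 lower (3341 and 3365 by adjusted p alone), and *NRPC1* was at 0.016. Only the 8007 tested probe sets that have a length enter these counts. With the trend left in, 2048 were higher and 1845 lower of the 8032 with 1 gene. Each cause was not tested beyond the number of probe sets entering. Leaving out 1 array gave 3398 to 3501 higher and 3485 to 3606 lower, and 1 to 3 probe sets for time by treatment, with 3 without Mock 4 h sample 1 or DEX 4 h sample 1 and 2 without DEX 4 h sample 2, Mock 24 h sample 2 or DEX 24 h sample 3. For the line difference, leaving out 1 array gave 3478 to 3729 positive and 3726 to 4020 negative probe sets. Both counts were highest without GL3-GR DEX 4 h sample 1.

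Of 103 probe sets described, 58 had the same call and direction in every alternative. With direction kept, 7 calls ended and 14 were gained after median centring, 6 ended and 7 were gained on the deposited scale, 7 ended and 3 were gained without the length trend, and 3 ended with all 22 arrays normalised together. The call of *TTG1* ended without DEX 4 h sample 1 (0.87), DEX 24 h sample 1 or 3 (0.98 each) or Mock 24 h sample 3 (1.0), that of *CPC* without Mock 4 h sample 3 (0.90) or DEX 4 h sample 1 (0.99), and that of *SPY* without Mock 4 h sample 3 (-0.98) or DEX 4 h sample 3 (-0.99), while *CML38* (1.08, without Mock 24 h sample 3) and *KINBETA2* (-1.0, without DEX 24 h sample 1) passed. The labels number samples alike in all groups. Deviations from group means correlated at -0.10 to 0.36 between same-numbered samples (3 of 18 over 0.1). Between differently numbered samples they correlated at -0.38 to 0.38 (3 of 36 over 0.1). Same-numbered Mock and DEX samples of 24 h were at 0.07, 0.15 and 0.36 for samples 1, 2 and 3. Mock sample 2 and DEX sample 1 of 24 h, numbered differently, were at 0.38. With the replicate block, 3436 were higher and 3538 lower, and the line difference was positive for 3572 and negative for 3827. Levels under 3.38 limit the size of changes from and to background, and genes without a named probe set were not described.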
